A study of Mus musculus with 6 samples.

Results

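The 9 genes described here brake the cell cycle between mitosis and DNA replication. They are the CIP/KIP inhibitor genes *Cdkn1a* and *Cdkn1b*, the INK4 inhibitor genes *Cdkn2a*, *Cdkn2b*, *Cdkn2c* and *Cdkn2d*, and the pocket protein genes *Rb1*, *Rbl1* and *Rbl2*. They were chosen by name, as genes of cell cycle arrest and culture senescence, without *Cdkn1c*, out of 25043 genes to which the transcripts of the deposited table could be assigned. All 9 were found, with 15 RefSeq transcripts among the 42361 of the table, and where a gene had several, the one with the highest mean stands for it.

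RNA-Seq libraries of total RNA were made from mouse embryonic fibroblasts (MEFs), 3 from wild type (WT) and 3 from *Anp32e* null (*Anp32e*-/-) cultures. The cells were primary, were grown in medium with fetal bovine serum at a passage below 8 and received no other treatment, while the strain, sex and embryonic age were not stated, nor whether each culture came from a separate embryo. ANP32E is a histone chaperone that takes the variant H2A.Z out of chromatin. The deposited table gives 1 mean for each transcript over all 6 libraries of both genotypes, which is used here, and the authors' own comparison of the genotypes, which is not. The values below are therefore levels of the pooled cultures, without a value for either genotype, without a spread between replicates and without a test of a difference.

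CDK inhibitors hold back the cyclin-dependent kinases. INK4 proteins bind CDK4 and CDK6 and keep D-type cyclins off them, while CIP/KIP proteins bind cyclin-CDK complexes, above all those of CDK2. When the kinases are held back, the pocket proteins RB1, p107 and p130 stay underphosphorylated and keep E2F transcription factors silent. In cultured MEFs, *Cdkn2a* is known to accumulate with passage, and its products are central to the arrest that primary cultures reach.

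*Cdkn2a* is unusual in making 2 unrelated proteins from overlapping transcripts. Its gene spans chr4:89274471-89294653 (GRCm38, minus strand), and each of its transcripts starts from a first exon of its own and then runs through the same exon 2. The transcript of p16, an INK4 protein, starts with exon 1 alpha (chr4:89281986-89282192, 207 bases). That of p19Arf, which does not bind a CDK but shields p53 from MDM2, starts with exon 1 beta (chr4:89294334-89294653, 320 bases). The coding parts of these exons are shown because they are where the messages of p16 and p19Arf differ from the start. They come from the GENCODE M21 transcripts of GRCm38, on the minus strand, from chr4:89281986-89282111 for p16 and chr4:89294334-89294523 for p19Arf, and the start codon is in capitals.
p16, exon 1 alpha: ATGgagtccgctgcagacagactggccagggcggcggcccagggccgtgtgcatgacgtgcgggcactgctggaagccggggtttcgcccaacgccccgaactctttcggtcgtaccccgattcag
p19Arf, exon 1 beta: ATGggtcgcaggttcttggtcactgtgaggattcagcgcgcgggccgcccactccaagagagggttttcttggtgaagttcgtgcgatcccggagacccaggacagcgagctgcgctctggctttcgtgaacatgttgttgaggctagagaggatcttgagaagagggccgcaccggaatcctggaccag

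Exon 2 is then read in different frames. Its first 30 bases (chr4:89276956-89276985, minus strand) are shown once for each transcript, with the first codon that lies wholly in the exon in capitals.
p16, exon 2: GTGatgatgatgggcaacgttcacgtagca
p19Arf, exon 2: gtGATgatgatgggcaacgttcacgtagca
In p16 the coding part of the first exon, 126 bases, ends on a whole codon, and the reading frame runs on through all 341 bases of exon 2 into exon 3, for 168 codons. In p19Arf the 190 coding bases leave 1 base over, so exon 2 is entered in another frame, which stops after 320 bases of it, for 169 codons. Reads on the bases of exons 2 and 3 that both messages hold cannot be assigned to either.

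**Figure D1:**
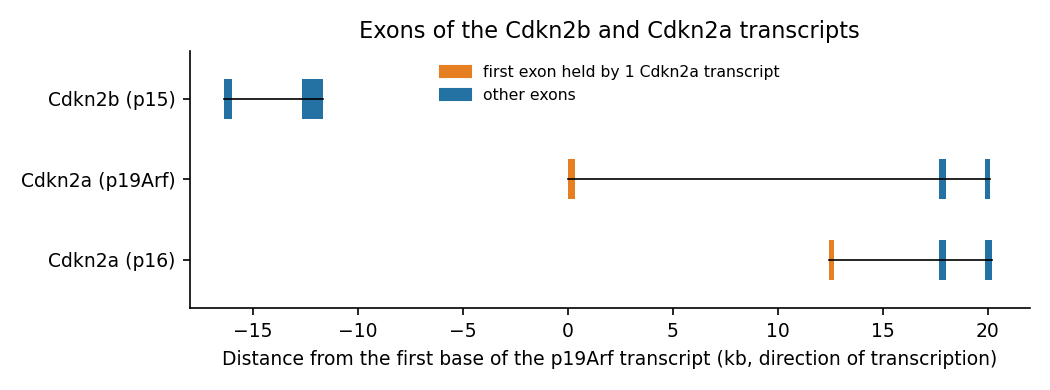
Exons of the *Cdkn2b* transcript and of both *Cdkn2a* transcripts, as boxes on a scale of kb from the first base of the p19Arf transcript, in the direction of transcription. The first exons of *Cdkn2a* (orange) are each held by 1 transcript, while exon 2 lies at the same place in both; *Cdkn2b* lies upstream.

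To ask how strongly each brake was expressed, the mean normalized count of each gene was divided by the length of its transcript, which gives a level per kb that can be compared between genes. A normalized count is a read count divided by the size factor of its library, which corrects for depth. *Cdkn2a* had the highest level, *Cdkn1a* followed, the remaining inhibitors ranged from 1480 to 818 per kb, and the pocket protein genes were lowest. All 9 genes lay above 129 per kb, the median of 17737 genes with reads and a known length. When genes with means under 10 normalized counts were left out of the comparison, 7 of 9 lay above the median, with *Rbl2* and *Rb1* under it. That median was 338 per kb, and the lists of other genes below were set only against the median of 129. Intervals given below are exact Poisson 95% intervals and cover counting error only.

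**Figure D2:**
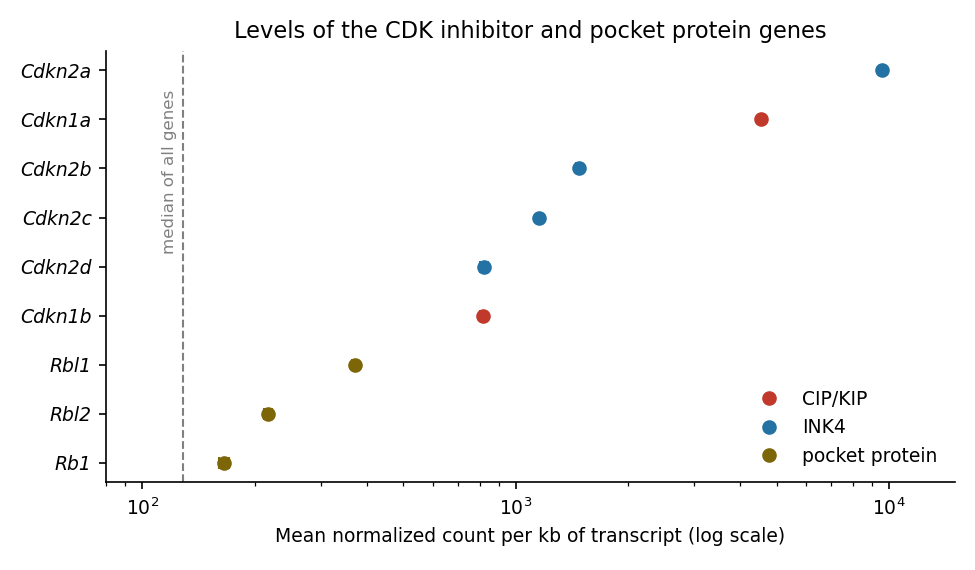
Mean normalized count per kb of transcript of the 9 genes on a log scale, with 95% counting intervals that are mostly narrower than the points. The level fell from 9569 for *Cdkn2a* to 165 for *Rb1*, and the dashed line marks the median of all genes, 129.

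Of the CIP/KIP genes, *Cdkn1a*, which encodes p21, the inhibitor that p53 induces, had a mean of 8662 normalized counts (interval from 8584 to 8741). Before division by length this was the highest of the 9 genes, but the interval overlaps that of *Cdkn2a*, from 8487 to 8643. The mean of *Cdkn1a* stands for between 47240 and 58772 reads over the 6 libraries. Its level was 4528 per kb, at percentile 95.1 of all genes. This level rests on the choice of transcript, since the other one, with nearly the same mean, is listed with 922 bases in place of 1913 and gave 9390 per kb. As listed, the shorter transcript lacks 1021 bases of the last exon of the longer one, yet their means differed by only 5.03 normalized counts. It is therefore doubtful that 922 bases is the length that was counted, and comparisons below that use the shorter transcript share this doubt. *Cdkn1b* encodes p27, the inhibitor that is largely controlled through its breakdown by the SKP2 ubiquitin ligase. It had a mean of 1958 normalized counts (interval from 1921 to 1996) and a level of 818 per kb, at percentile 77.3, so that *Cdkn1a* stood 5.53-fold above it per kb.

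The 4 INK4 genes covered an 11.6-fold range per kb. *Cdkn2a*, by its p19Arf transcript, had a mean of 8564 normalized counts (interval from 8487 to 8643) and a level of 9569 per kb, at percentile 97.6 of all genes. *Cdkn2b*, which encodes p15, the INK4 protein known to respond to TGF-beta, lies 11645 bases upstream of *Cdkn2a* on the same strand. It had a mean of 2058 normalized counts (interval from 2020 to 2096) and a level of 1480 per kb, 6.46-fold under that of its neighbour. The level of *Cdkn2a* cannot be credited to p16 alone, since it also holds the reads of p19Arf.

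*Cdkn2c* encodes p18 and lies on the same chromosome as *Cdkn2a*, but apart from it, from 109660876 to 109667189. It had a mean of 2858 normalized counts (interval from 2813 to 2903) and a level of 1156 per kb, at percentile 82.2. *Cdkn2d*, the gene of p19Ink4d, a CDK4 and CDK6 inhibitor that must not be mixed up with p19Arf, had a mean of 1172 normalized counts (interval from 1143 to 1201) and a level of 824 per kb, at percentile 77.4. In the order of levels, *Cdkn2d* and *Cdkn1b* differed by a ratio of 1.01, with overlapping intervals, and were the only neighbours in the order for which this held. Whether the other steps in the order, from 1.28-fold to 3.06-fold, exceed the spread between cultures cannot be said from a pooled mean.

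The pocket protein genes had the lowest levels per kb of the 9, under every inhibitor gene. Before division by length this order did not hold, since the mean of *Rbl1* exceeded that of *Cdkn2d*, 1172. *Rbl1*, which encodes p107, a pocket protein made mainly by cycling cells, had a mean of 1803 normalized counts (interval from 1768 to 1839) and a level of 371 per kb. *Rbl2*, which encodes p130, the main partner of E2F4 in resting cells, had a mean of 1071 (interval from 1043 to 1098) and a level of 217 per kb. *Rb1* had the lowest mean, 770 normalized counts (interval from 747 to 793), and the lowest level, 165 per kb at percentile 53.0. *Rbl1* thus stood 1.71-fold above *Rbl2* and 2.24-fold above *Rb1*. The level of *Rb1* depends on where its message is taken to end: with the gene ends of RefSeq, which add 2773 bases to the 4656 of its transcript, it was 104 per kb, at percentile 47.8. *Rb1* and *Rbl2* also overlap other genes on the opposite strand, among them *Lpar6* and *Rcbtb2* for *Rb1* and *Aktip* for *Rbl2*. *Cdkn1a* and *Rbl1* each overlap an annotated gene on the opposite strand too, and *Gm17233* and *Mir687* overlap *Rb1* on its own strand. These overlaps are between whole gene spans, and whether they reach counted bases was not examined. The libraries were stranded, but whether strand was used in counting is not given in the sources used here, and the share of reads from these partners was not tested.

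**Figure D3:**
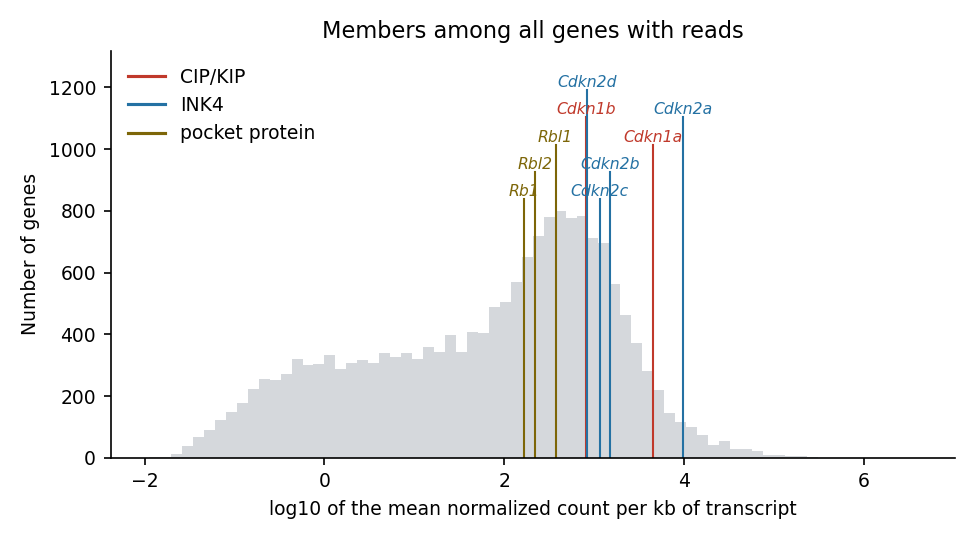
Number of genes by log10 of the mean normalized count per kb, for the 17737 genes with reads and a length, with a line at the level of each of the 9 genes. *Cdkn2a* and *Cdkn1a* stand in the upper tail, at percentiles 97.6 and 95.1, and the pocket protein genes stand near the middle, from 53.0 to 64.8.

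The transcripts of one gene were examined next, since 5 of the 9 genes have more than 1 in the table. Of 6259 genes with at least 2 transcripts at a mean of 10 or more, 2011, or 32.1%, had transcripts with exactly the same mean, as *Rbl2* did for NM_001282001 and NM_011250, and the lowest transcript of a gene had a median of 98.5% of the mean of its highest. Reads on shared exons were thus counted for each transcript that holds them. Transcript means may therefore not be added up, and only the difference between them speaks of exons they do not share.

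For *Cdkn2a*, the p19Arf transcript (NM_009877) had a mean of 8564 normalized counts and the p16 transcript (NM_001040654) of 7707 (interval from 7634 to 7781). The difference of 857 normalized counts, 10.0% of the higher mean, stands for between 4674 and 5816 reads over the 6 libraries. In the GENCODE models, exon 1 beta, whose coding sequence is printed above, is all that the p19Arf transcript holds and the p16 transcript lacks. Exon 1 beta therefore held at least 857 normalized counts in the pooled cultures, or 2679 per kb of its 320 bases. The means set no such lower bound for exon 1 alpha, so the level of p16 message cannot be read from them.

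For *Cdkn2c*, the transcript with the upstream start (NM_001301368) had a mean of 2858 normalized counts and that with the downstream start (NM_007671) of 1497 (interval from 1465 to 1530), a 1.91-fold difference. In the GENCODE models only the first exon of the former, of 1580 bases, is missing from the latter, so that exon held at least the 1361 normalized counts between them, 47.6% of the higher mean. Again no lower bound follows for the first exon of the other transcript. Both transcripts encode p18.

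*Cdkn1a* behaved otherwise. Its transcripts with different first exons, NM_007669 and NM_001111099, had means of 8662 and 8657 normalized counts, apart by 5.03 or between 27 and 34 reads over the 6 libraries, so nearly all of their reads were shared, or balanced between the exons they do not share. The transcripts of *Rbl2* ranged from 1054 to 1071 normalized counts. For *Rbl1*, NM_011249 had a mean of 1803 and NM_001139516 of 1031, 57.2% of it, and the exons of the latter were not analysed here. *Cdkn1b*, *Cdkn2b*, *Cdkn2d* and *Rb1* each have 1 transcript in the table.

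**Figure D4:**
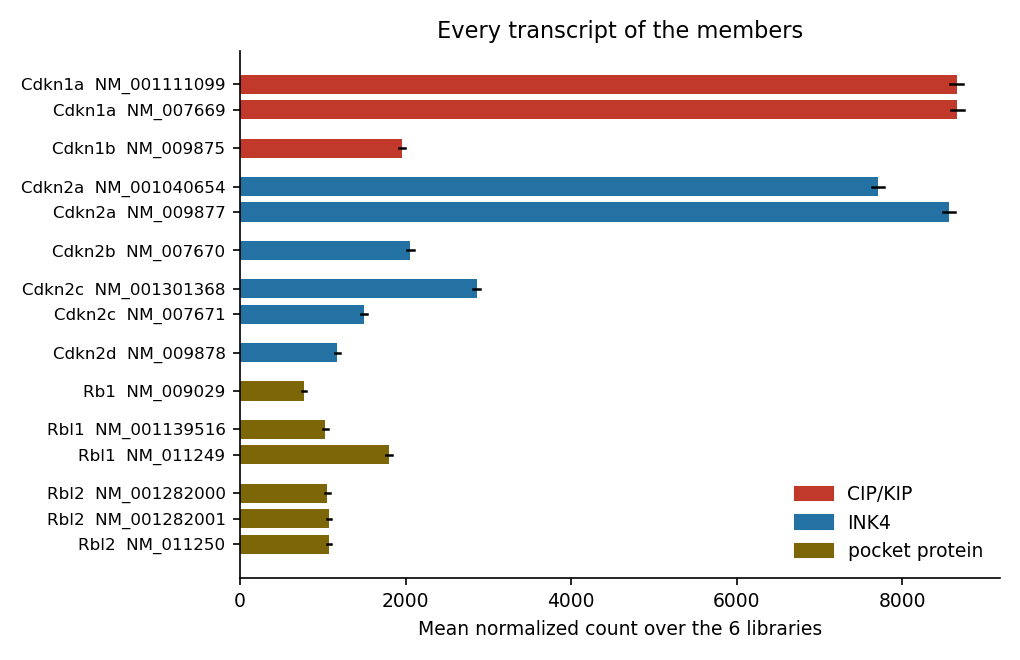
Mean normalized count over the 6 libraries of each of the 15 transcripts, as bars from 0 with 95% counting intervals as black lines. The *Cdkn1a* bars are almost equal at 8657 and 8662, those of *Cdkn2a* differ by 857, and the lower bar of *Cdkn2c* reaches 52.4% of the higher one.

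Genes of cyclins and cyclin-dependent kinases, among them those that these inhibitors bind, were set beside them, as levels per kb. Of 14 such genes, 12 lay above the median of all genes. *Cdk4*, a target of the INK4 proteins, was the highest of them at 20099 per kb, 2.10-fold above *Cdkn2a* and 24.4-fold above *Cdkn2d*. The level of *Cdkn2a* is that of its p19Arf transcript, so the ratio does not set p16 against *Cdk4*. *Cdk6*, the other target of the INK4 proteins, had 51.5 per kb, 390-fold less than *Cdk4* and under each of the 9 genes. Its transcript of 11525 bases gathered 594 normalized counts, against 41263 for *Cdk4*, so that gap was smaller before division by length. *Ccnd1*, a D-type cyclin gene, had 6656 per kb, 1.47-fold more than *Cdkn1a* by its transcript of 1913 bases. The level of *Ccnd1* was under the 9390 that the doubtful length of 922 bases gave for *Cdkn1a*. *Cdk2*, bound by the CIP/KIP proteins, had 2155 per kb, so that *Cdkn1a* lay 2.10-fold above its target by the longer transcript, and further above it by the shorter. *Ccna1*, a cyclin of the germ line, was lowest at 3.45 per kb.

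Among 16 genes of E2F factors, their dimerization partners and the DREAM complex, through which p107 and p130 silence cell cycle genes, 13 of the 15 with a length lay above the median. *Tfdp1*, the usual partner of E2F proteins, was highest at 3413 per kb and *E2f2* lowest at 32.5. *E2f4*, which pairs with p107 and p130, had 2041 per kb, 2.14-fold more than *E2f1*, an activator held by RB1, at 952. All 3 pocket protein genes were under *E2f1* and *E2f4* on this scale.

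Of 12 genes that control the inhibitors, 11 lay above the median. *Trp53*, the gene of p53, had 4900 per kb, above the 4528 of its target *Cdkn1a* by the longer transcript. The doubtful length of the shorter transcript gave *Cdkn1a* 9390 per kb, above *Trp53*. *Mdm2*, a p53 target whose product p19Arf inhibits, had 1314, 3.45-fold less than *Cdkn1a* by the longer transcript, a gap that widens with the shorter. *Skp2*, which marks p27 for breakdown, had 725 per kb against 818 for *Cdkn1b*. *Bmi1*, a Polycomb gene known to repress *Cdkn2a*, had 729 per kb, 13.1-fold less than *Cdkn2a*. *Cks1b*, a cofactor of SKP2, was highest at 10009 and *Cbx7*, another Polycomb gene, lowest at 100.4.

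High levels of inhibitor messages stood beside high levels of proliferation genes. All 11 proliferation genes lay above the median, from *Bub1* at 681 to *Pcna* at 11489 per kb, with *Mki67*, the marker of cycling cells, at 1210. Of 10 genes of the senescence secretome and related markers that are reported here, 8 lay above the median. These include *Lmnb1*, a lamina gene whose loss marks senescence, at 1451 per kb, and without it 7 of 9 did. *Timp1*, which encodes an inhibitor of metalloproteinases, was highest of these at 31041 per kb, while *Il6*, a cytokine gene of senescent cells, was lowest at 4.66, with a mean of 5.31 normalized counts. A pooled mean does not tell whether inhibitor and proliferation messages came from the same cells, or from cultures of the same genotype, and in bulk RNA fewer cells with a message and less of it per cell cannot be told apart.

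**Figure D5:**
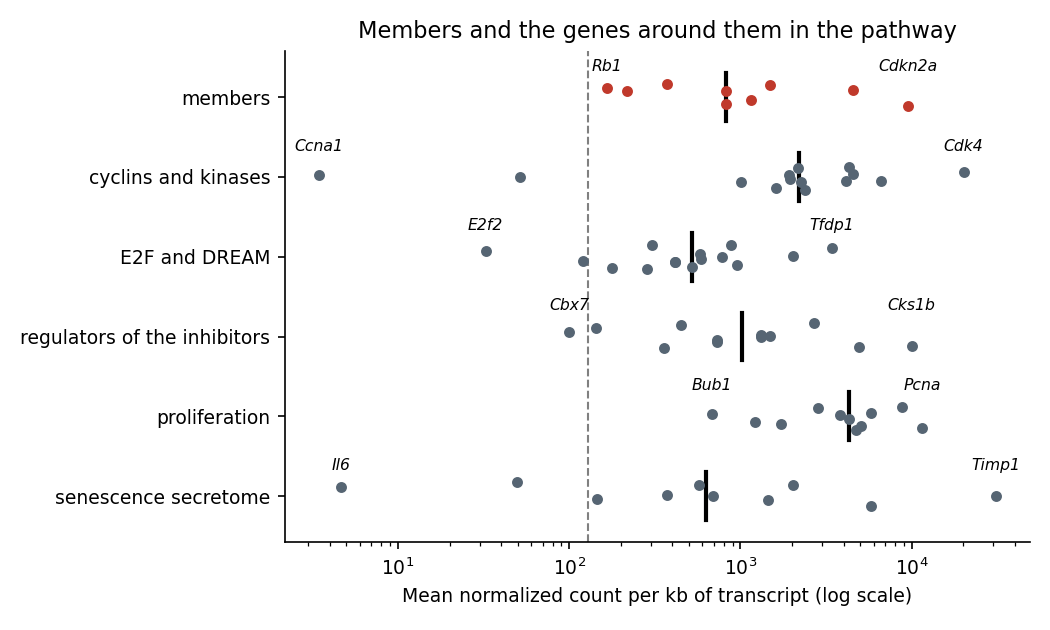
Mean normalized count per kb on a log scale for the 9 genes (red) and 5 lists of genes around them (grey), with the median of each list as a black bar and the lowest and highest gene named. *Cdk4* at 20099 exceeds all 9 genes, and all proliferation genes lie to the right of the dashed median of all genes, 129.

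As to the cultures, 9 of 10 fibroblast marker genes lay above the median, with *Vim* at a mean of 330695 normalized counts. A mean of 10 or more was also reached by 2 of 5 marker genes of macrophages and blood, 2 of 4 of endothelium, 4 of 5 of epithelium, 2 of 4 of skeletal muscle and 1 of 4 of neural cells. Under 10 lay *Ptprc* (3.09), *Adgre1* and *Hbb-bs* of blood cells, *Pecam1* and *Cdh5* (3.54) of endothelium, *Epcam* (5.12) of epithelium, *Myog* of muscle, and *Sox10* (8.22), *Gfap* and *Rbfox3* of neural cells, and *Myod1* of muscle had no reads. The others were *Csf1r* (40.1), *Cd68* (257), *Tek* (34.4), *Kdr* (2958), *Cldn4* (12.4), *Krt8* (26.7), *Cdh1* (67.1), *Krt18* (1106), *Ttn* (67.6), *Acta1* (4711) and *Tubb3* (737), and the part of such cells in the levels above was not tested. Both *Xist*, the RNA of the inactive X chromosome (2556), and the Y-linked gene *Ddx3y* (551) had reads, and how these fell on the genotypes is not known. *Anp32e* had a mean of 2190 normalized counts, which includes the WT cultures and so checks neither genotype.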

How the data were processed

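Total RNA of 3 WT and 3 *Anp32e*-/- MEF cultures was sequenced. The authors' notes name STAR, featureCounts of Subread and DESeq2 (default settings) with the mm10 build; the use of strand is not given in the sources used here. The signal column of the deposited table, made by the authors, is the mean over 6 libraries of counts divided by size factors. Its 5 other columns hold the authors' comparison of the genotypes (log2 fold change, standard error, Wald statistic, p-value, adjusted p-value) and were not used, so no test was run.

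Of 42361 transcripts, 42203 were matched to RefSeq genes of GRCm38.p6. Of 19275 genes with reads, 92.0% had a length, from the GENCODE M21 transcript paired with the RefSeq accession. Sizes of 1-read steps among the lowest means gave 6 size factors, from 0.909 to 1.13, not assigned to libraries, and all 2030 means under 0.6 were whole sums of these steps (tolerance 1e-08). Recovery of size factors was tested on simulated data. Size factors bound the reads behind each mean, and intervals use the fewest. Total counts per library are unknown.

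All 9 genes and all their transcripts are named, as are, from each pathway list, its highest and lowest gene and a picked set, mainly genes that bind or control a member. Other such genes of the lists, among them *Ezh2* and *Myc*, are counted without their levels being given. Members, lists and this rule were chosen with earlier results of these data known. One gene of the senescence list is not reported here. *Lmnb1*, *Vim*, *Pdgfra*, *Xist* and *Ddx3y* were named after their values were seen. Python 3.11.15, numpy 2.4.6, pandas 2.3.3, scipy 1.17.1 and matplotlib 3.10.9 were used.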

Additional observations from a re-analysis of the deposited data

How the results depend on the processing

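All 9 genes stayed above the median level per kb when each gene was represented by its longest transcript, when X and Y genes were left out and when means were not divided by length. With a minimum mean of 10 normalized counts for the genes compared, 7 did. With the transcript of lowest mean, 8 did, since that of *Rbl1* had no length. With gene ends of RefSeq, an alternative chosen after seeing the data, 8 did, and *Rb1* fell under the median. These ends moved 4 of 9 levels beyond their counting interval, *Cdkn2a* to 9947, *Cdkn2c* to 1402, *Cdkn2d* to 788 and *Rb1* to 104 per kb, and placed *Cdkn1b* above *Cdkn2d*. The transcript of lowest mean moved 4 of 8, most of all *Cdkn1a*, to 9390 per kb, since its other transcript is listed with 922 bases, a doubtful length as said above. Percentiles of all 9 genes moved beyond the counting interval with the minimum mean, to between 36.0 and 96.8, and without division by length, to between 59.0 and 94.3. The lower bound per kb for exon 1 beta, 2679, became 2997 with the RefSeq gene end, also chosen after seeing the data. Restricting this bound to bases in no other transcript could not move it, since all 320 are such. No paired analysis was possible because the table holds no value per library, so no replicate could be left out either, and the authors' standard errors, part of their comparison, were not used.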
